A study of Mus musculus with 8 samples.

Results

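Expression was compared between 96 h and 48 h after transfection of mouse embryonic stem (ES) cells with Tet1 siRNA #1, called siRNA 1 here. The comparison used the 2 arrays labelled with this siRNA and 96 h and the 2 labelled with it and 48 h, which are 4 of the 8 arrays of the series, and all 15267 genes with a named probe set. The cells were of the line E14Tg2a, grown from the inner cell mass of a mouse blastocyst. The other 4 arrays held cells at 96 h with Tet1 siRNA #2, called siRNA 2 (2 arrays), and with a control duplex against firefly luciferase (2 arrays). All 4 groups were transfected, and no untreated cells and no control at 48 h were analysed here, so the time after transfection and the response to the siRNA cannot be told apart by this comparison alone. The level in the control at 96 h is therefore given beside the genes described. Each value is an RMA expression value on the log2 scale, so that a difference of 1 is a 2-fold change. No named probe set measured Tet1, and its knockdown was not analysed here. Separate cultures are not named in the labels, so p-values cover only the spread between arrays of a group, which may be technical.

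Tet1 encodes a dioxygenase that oxidises methylated cytosine in DNA to hydroxymethylcytosine, and it is abundant in ES cells. ES cells kept with leukaemia inhibitory factor (LIF) hold a naive pluripotent state, in which Stat3 and a circuit of factors such as Klf4, Esrrb, Tbx3, Tfcp2l1 and Nanog maintain each other. When cells leave this state they pass through a formative, epiblast-like stage that keeps Pou5f1 and gains Otx2, Pou3f1, Fgf5 and the de novo DNA methyltransferase Dnmt3b, before germ layer genes appear.

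The 48 h arrays stood apart from all others in transcripts that are added to the samples and in 18S ribosomal RNA, which the cells make. The transcripts added at hybridisation (18 probe sets of bioB, bioC, bioD and cre) averaged 11.80 and 11.64 on the siRNA 1 arrays at 96 h, against 11.02 and 10.97 at 48 h. The poly-A spike transcripts (24 probe sets of dap, lys, phe and thr) averaged 7.60 and 7.89 at 96 h, against 8.65 and 8.68 at 48 h, and the 18S ribosomal RNA probe sets 11.89 and 11.94 at 96 h, against 13.44 and 13.53 at 48 h. On the other 4 arrays of 96 h these means were 11.87 to 12.02, 7.51 to 7.68 and 11.89 to 12.38, near the siRNA 1 values at 96 h. Across genes, Pearson's r was 0.997 to 0.998 between arrays of the same group, whereas siRNA 1 arrays of 96 h and 48 h had an r of 0.983 to 0.984. Time and the preparation or run of the arrays cannot be told apart here. The ES cell markers Pou5f1 and Sox2 were at 13.02 or above on all 4 siRNA 1 arrays.

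**Figure D1:**
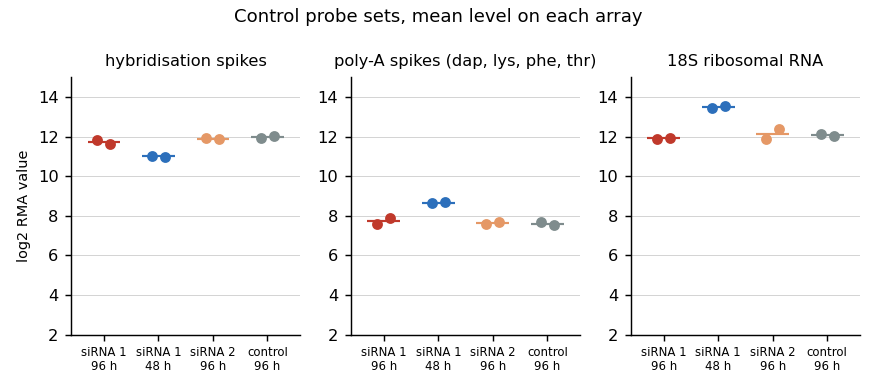
Mean log2 RMA value (vertical axis) of the hybridisation spikes, the poly-A spikes and 18S ribosomal RNA on each array; points are arrays, bars are group means and the groups run along the horizontal axis. The 48 h arrays lie below the other 6 in the hybridisation spikes (10.99 on average, against 11.72 for siRNA 1 at 96 h) and above them in 18S ribosomal RNA (13.48, against 11.92).

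Across all genes, expression differed widely between the time points. Of 15267 genes, 5748 (37.6%) were called by limma at an adjusted p below 0.05, 2931 higher (19.2%) and 2817 lower (18.5%) at 96 h. At least 2-fold changes were fewer, with 297 genes higher (1.95%) and 189 lower (1.24%), and the median log2 fold change of all genes was -0.032. Without the 48 h array of replicate 2, 3664 genes were called, 1918 higher and 1746 lower. The even split of directions depended on the scale of the arrays. When each array was centred on its proteasome genes, the median of all genes became -0.16 and 1812 genes were higher and 4384 lower. The share of calls that were higher was then 29.2%, against 51.0% on the deposited scale. It was 60.0% when the dimmer genes were left out, with 2744 genes higher and 1833 lower. Changes are therefore read below against the median of all genes, and the counts of called genes on a list against the shares of all genes called higher and lower. The values of both groups did not overlap in 70.3% of all genes, so that non-overlap of 2 arrays with 2 is common here.

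**Figure D2:**
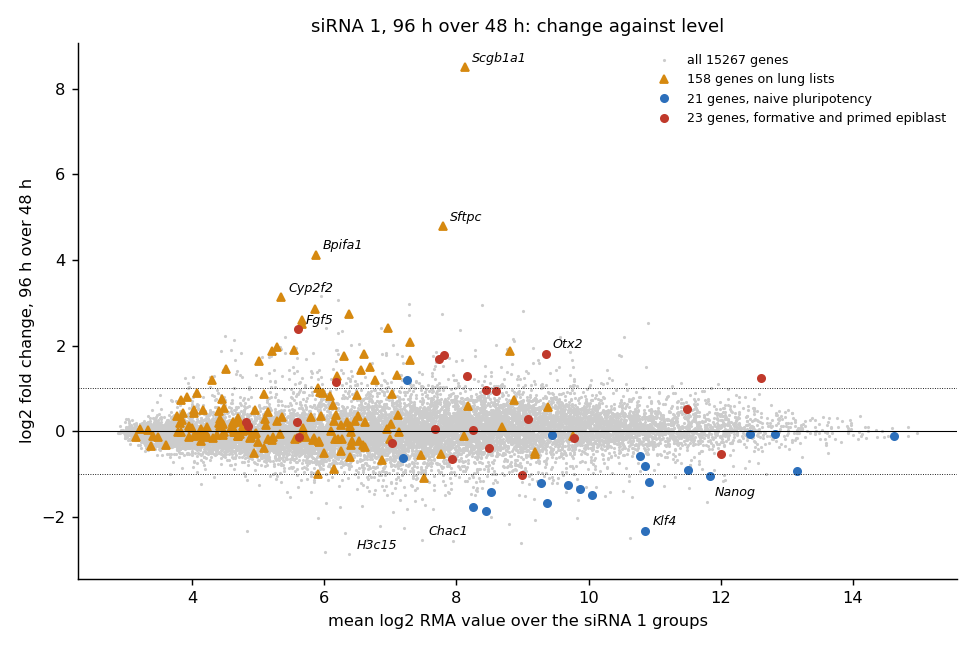
Log2 fold change of siRNA 1 at 96 h over 48 h (vertical axis) against the mean log2 RMA value over both groups (horizontal axis) for 15267 genes; triangles are 158 genes on lists of lung cell types, and circles are genes of the naive and the formative lists. Dotted lines mark 2-fold changes; Scgb1a1 (8.51) and Sftpc (4.80) lie far above all ES cell genes, and most naive genes lie below zero.

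The largest rises of all were those of genes that lung epithelium expresses. Scgb1a1, which airway club cells secrete, had values of 12.48 and 12.27 at 96 h, against 3.71 and 4.03 at 48 h. It was bright at the later time and near the floor of the arrays at 48 h, where probe sets of the bacterial gene trp, assumed not to be in the samples, averaged 3.48. The difference was 8.51 ± 0.25 on the log2 scale (limma adjusted p = 2.47e-06). For it and other genes that averaged below 4 on the log2 scale in a group, differences here are lower bounds, with no fold given. Sftpc, a surfactant protein of alveolar type 2 cells, had 10.29 and 10.09 at 96 h, against 5.40 and 5.39 at 48 h, a rise of 4.80 ± 0.22 (adjusted p = 9.06e-06). The same genes were as high on the other 96 h arrays. Scgb1a1 had 12.83 and 11.95 with siRNA 2 and 12.66 and 12.64 in the control, and Sftpc had 10.70 and 9.95 with siRNA 2 and 10.24 and 10.54 in the control. These transcripts were thus on all 6 arrays of 96 h, whichever siRNA the cells had received.

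**Figure D3:**
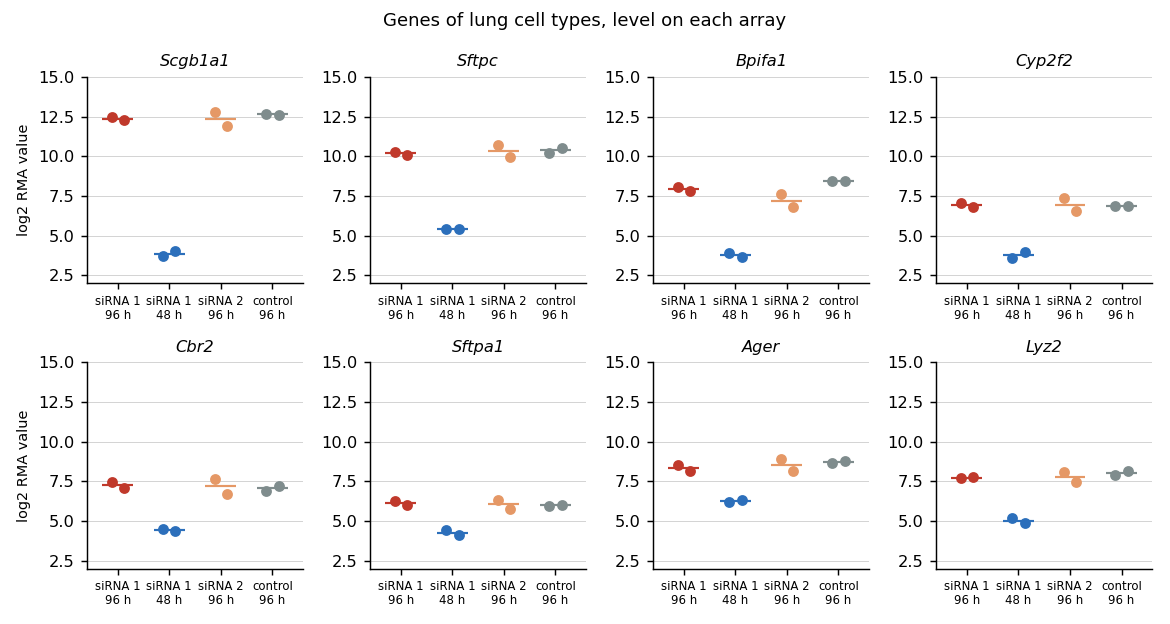
Log2 RMA value (vertical axis) of 8 genes of lung cell types on each array, with bars at group means and the groups along the horizontal axis. All 8 genes are lower on the 48 h arrays than on the 6 arrays of 96 h; Scgb1a1 averages 12.38 with siRNA 1 at 96 h, against 3.87 at 48 h.

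Other genes of the same cell types rose too. Bpifa1, a secreted airway defence protein, rose by 4.12 ± 0.24, the cytochrome P450 gene Cyp2f2 of club cells by 3.13 ± 0.24 and the carbonyl reductase gene Cbr2 by 2.85 ± 0.27. In all, 8 of 19 airway secretory genes were called higher and 0 lower by limma, with 1 lower at an unadjusted p below 0.05. The other 11 did not pass, and the median of the list was 0.19. Of the genes called higher, Aldh1a7 lost the call under 7 of the alternative settings, Cckar under 4, Hp under 3 and Scgb3a1 under 2. Values summed on the linear scale came to 6073 and 7047 at 96 h, against 613 and 651 at 48 h, with 7 genes below a log2 value of 4 at 48 h. Most of that sum was Scgb1a1, and without it the sums were 1131 and 1315 at 96 h, against 600 and 635 at 48 h. Of 15 alveolar type 2 genes, 7 were called higher, among them Sftpa1 (1.87), Sftpd (1.51) and Cxcl15 (1.64), 0 were called lower by limma (and 0 at an unadjusted p below 0.05) and 8 were not called, with a median of 0.25. Their summed signal was 2812 and 3086 at 96 h, against 1210 and 1243 at 48 h. Without Sftpc it was 1722 and 1834 at 96 h, against 1168 and 1201 at 48 h. Sftpb and Napsa, which type 2 cells also express, did not pass, with differences of 0.25 ± 0.12 and -0.01 ± 0.13. Of 14 type 1 genes, 8 were called higher and 1 lower. The receptor gene Ager had 8.52 and 8.16 at 96 h, against 6.20 and 6.33 at 48 h, and the caveolin gene Cav2 rose by 2.51 ± 0.23. Ager was at 8.90 and 8.15 with siRNA 2 and 8.63 and 8.81 in the control, again as high as with siRNA 1.

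The stromal and blood cell lists moved less evenly, and their counts stand against 19.2% of all genes called higher and 18.5% called lower. Of 23 fibroblast genes 12 were called higher and 4 lower. The methyltransferase gene Inmt (7.14 and 6.77 at 96 h, against 4.27 and 4.45 at 48 h) and the actin-severing gene Gsn (2.41) rose most of those named, while the matrix gene Fbln1 fell by 1.10 ± 0.088. Lyz2, the lysozyme of macrophages and type 2 cells, rose by 2.74 ± 0.20, but of 24 macrophage genes 4 were called higher and 3 lower. Of 18 endothelial genes 6 were called higher and 4 lower. Tmem100 rose most, by 1.44 ± 0.19, and the lowest log2 fold change of the list was -0.87. The summed endothelial signal was 1761 and 1785 at 96 h, against 1801 and 1805 at 48 h, so it was not higher at 96 h. Of 16 ciliated cell genes 2 were called higher and 1 lower. Limma called 0 of 15 lymphocyte and 0 of 4 red blood cell genes higher, and 1 and 0 of them were higher at an unadjusted p below 0.05. Among tissues other than lung, 4 of 13 heart genes were called higher, the highest called rise being that of the troponin gene Tnnt2 (4.69 and 4.24 at 96 h, against 3.40 and 3.47 at 48 h). Of 12 skeletal muscle genes 1 was called higher and 2 lower, and their summed signal was 1195 and 1221 at 96 h, against 1802 and 1875 at 48 h, and 1889 and 1919 in the control. The light chain gene Mylpf was the brightest of them, and without it the sums were 578 and 597 at 96 h, against 585 and 597 at 48 h. Limma called 0 genes higher on the lists of brain, liver, kidney and intestine or pancreas, and again 0 at an unadjusted p below 0.05, against 19.2% of all genes. It called 3 of 9 brain, 2 of 14 liver, 1 of 11 kidney and 4 of 10 intestine or pancreas genes lower, against 18.5% of all genes. In bulk RNA, fewer cells of a type and less RNA per cell cannot be told apart, and the part of these transcripts in the other changes was not tested.

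Of the smooth muscle genes, Tagln and Myl9 did not have the pattern of Scgb1a1 across the arrays. Tagln, transgelin, which binds actin in smooth muscle and other contractile cells, had 9.77 and 9.72 at 96 h, against 7.81 and 7.94 at 48 h, and it had 9.34 and 9.15 with siRNA 2, against 7.92 and 7.86 in the control. The control at 96 h therefore lay near the 48 h level. Myl9, a myosin light chain, rose by 1.66 ± 0.11 and calponin (Cnn1) by 1.29 ± 0.12. Myl9 averaged 6.57 in the control, against 6.47 at 48 h. Of 10 genes 4 were called higher, 1 lower and 5 neither, with a median of 0.13. Without Tagln, which made up about as much as all the others, the summed signal was 777 and 801 with siRNA 1 at 96 h, against 546 and 562 at 48 h, and 682 and 719 with siRNA 2, against 551 and 558 in the control.

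Of the 297 genes at least 2-fold higher at 96 h, 27 were on a list of lung or another tissue, and of the 189 at least 2-fold lower, 2 were. The lists hold 227 of the 15267 genes and are not complete: Aldh1a1 and Cavin2, which lung also expresses, are on none of them. The other 270 rises and 187 falls are described below as genes on no tissue list. The arrays of siRNA 2 and the control at 96 h, whose levels took no part in the differences that chose them, were compared with each other. Their spread did enter the error shared by both comparisons. Over all genes, siRNA 2 against the control called 2392 genes (15.7%), 1223 higher (8.01%) and 1169 lower (7.66%). Of the 270 rises, 148 (54.8%) were also called higher with siRNA 2, 10 were called lower (3.70%) and 112 were not called, with a median log2 fold change of 0.50. Of the 187 falls, 101 (54.0%) were also called lower with siRNA 2, 2 were called higher (1.07%) and 84 were not called, with a median of -0.43. The median of all genes in that comparison was -0.017. When each comparison was fitted on its own 4 arrays, with no array in common, 129 of 270 rises (47.8%) were called higher with siRNA 2, against 4.70% of all genes, and 85 of 187 falls (45.5%) were called lower, against 4.24%. The count over all genes was 1419 and 1160 without siRNA 2 replicate 1 or 2, and 1432 and 1278 without control replicate 1 or 2.

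The naive pluripotency circuit was lower at 96 h. Of 21 measured genes, 16 were called lower, 1 higher and 4 neither, with a median of -1.04, against -0.032 over all genes. Klf4, a zinc finger factor and a target of Stat3, had 9.65 and 9.73 at 96 h, against 11.94 and 12.09 at 48 h. Both 96 h arrays lay far below both 48 h arrays, a fall of 2.33 ± 0.079 (5.01-fold, adjusted p = 3.88e-06). The T-box factor Tbx3 had 7.48 and 7.55 at 96 h, against 9.39 and 9.38 at 48 h, a fall of 1.87 ± 0.071. Esrrb, an orphan nuclear receptor that activates naive genes, had 8.47 and 8.59 at 96 h, against 10.19 and 10.24 at 48 h, a fall of 1.68 ± 0.079. Tfcp2l1, another factor of the circuit, had 9.24 and 9.35 at 96 h, against 10.77 and 10.82 at 48 h (2.83-fold lower).

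The control at 96 h lay at or below the 48 h level of these genes and above siRNA 1 at 96 h. Klf4 averaged 10.86 in the control and Esrrb 9.88, between the siRNA 1 groups. Tbx3 averaged 9.08 and Tfcp2l1 10.77, close to their 48 h levels. On the arrays of siRNA 2, Klf4 was lower than in the control by -0.68 ± 0.079 on the log2 scale (adjusted p = 0.00137), and Tfcp2l1 by -1.09 ± 0.083 (adjusted p = 0.000276). The median of the naive list in that comparison was -0.62. Dppa3, a maternal factor that protects DNA methylation in the zygote, was the single naive gene called higher and is named because of that value. It had 7.80 and 7.88 at 96 h, against 6.83 and 6.47 at 48 h, and 7.80 and 7.86 with siRNA 2, against 8.04 and 7.96 in the control, so all 96 h arrays lay above those of 48 h.

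**Figure D4:**
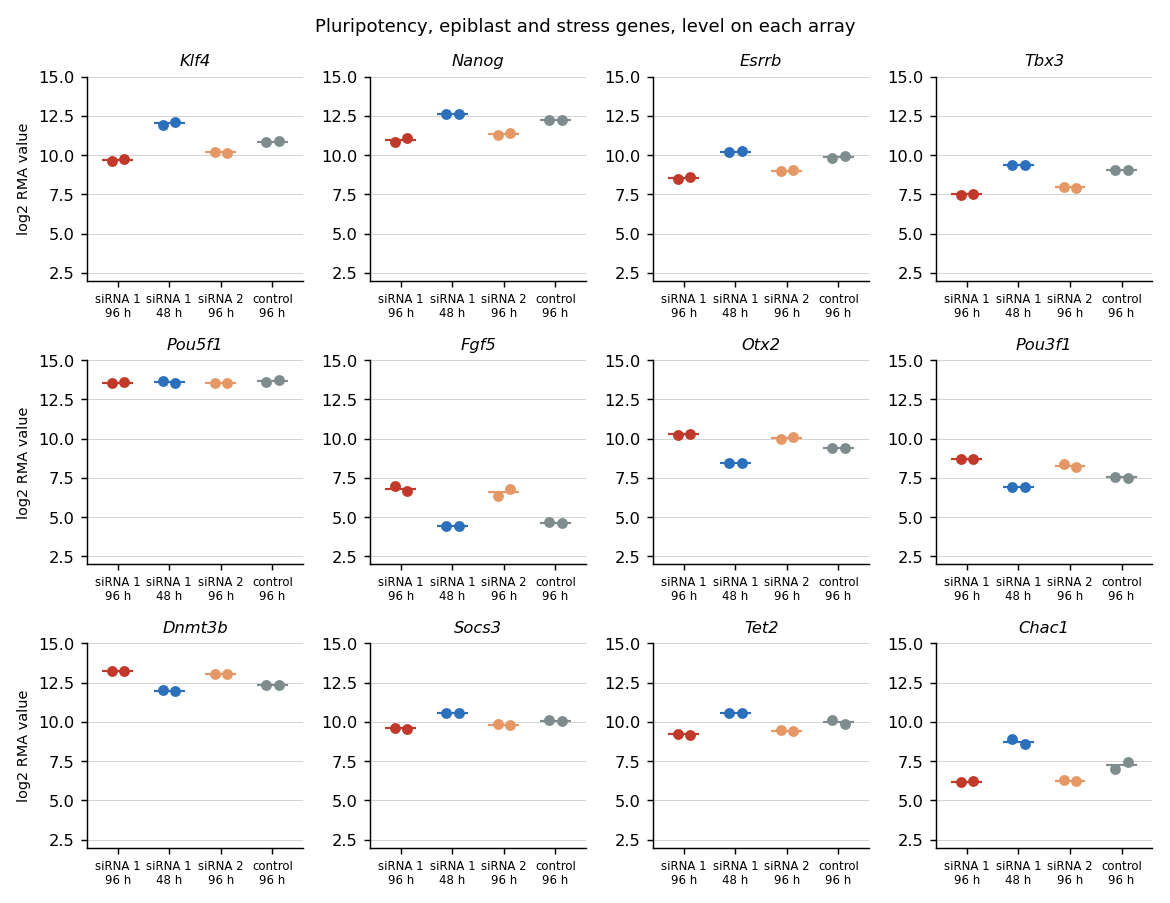
Log2 RMA value (vertical axis) of 12 pluripotency, epiblast and stress genes on each array, with bars at group means and the groups along the horizontal axis. Klf4, Nanog, Esrrb, Tbx3, Tet2 and Chac1 are lower with siRNA 1 at 96 h than at 48 h, Fgf5, Otx2, Pou3f1 and Dnmt3b are higher, and Pou5f1 stays between 13.51 and 13.66 on those 4 arrays.

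Factors of pluripotency in general did not move as the naive genes did. Pou5f1, the gene of Oct4, had 13.52 and 13.60 at 96 h, against 13.66 and 13.51 at 48 h, and its arrays overlapped (difference -0.03 ± 0.085, adjusted p = 0.831). Sox2, its partner on DNA, had 13.02 and 13.03 at 96 h, against 13.19 and 13.28 at 48 h. Its difference of -0.21 ± 0.071 passed narrowly (adjusted p = 0.0482) and lost the call under 10 of the alternatives, among them leaving out any 1 of the 8 arrays, with an adjusted p of up to 0.20. Nanog, a homeodomain factor, had 10.85 and 11.09 at 96 h, against 12.59 and 12.64 at 48 h, and fell by 1.65 ± 0.096 (adjusted p = 2.14e-05). It was at 11.31 and 11.42 with siRNA 2, against 12.26 and 12.24 in the control. The adhesion gene Epcam rose by 0.79 ± 0.093 and the methyltransferase cofactor Dnmt3l by 1.11 ± 0.083, whereas the cell cycle factor Mybl2 fell by 0.67 ± 0.095. Of 18 genes, 6 were called higher, 5 lower and 7 neither, with a median of 0.10 that became -0.032 on the proteasome scale.

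Genes of the formative epiblast were higher at 96 h in part. Of 23 genes, 10 were called higher, 3 lower (1 of them at least 2-fold) and 10 neither. The median was 0.22, and it became 0.093 on the proteasome scale. The lowest log2 fold change of the list was -1.02, and the genes named here are all among those called higher. Fgf5, a growth factor of the epiblast, had 6.96 and 6.63 at 96 h, against 4.41 and 4.42 at 48 h, where it was dim. It rose by 2.38 ± 0.15 (5.21-fold, adjusted p = 2.94e-05) and was as high with siRNA 2 (6.36 and 6.79) but dim in the control (4.66 and 4.64). Otx2, a homeodomain factor that drives the exit from the naive state, had 10.25 and 10.27 at 96 h, against 8.46 and 8.42 at 48 h, a rise of 1.81 ± 0.073. Its control values at 96 h were 9.38 and 9.38, between both. Pou3f1, a POU factor, rose by 1.78 ± 0.088, Dnmt3b by 1.25 ± 0.071 and Car4, a carbonic anhydrase, by 1.68 ± 0.088. Car4 had 6.53 and 6.62 in the control, below all siRNA arrays of either time (6.87 and 6.90 at 48 h).

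Of the LIF receptor and Stat3 components, the feedback inhibitor Socs3 had the largest change, although several targets listed below changed more. Socs3, which Stat3 induces and which limits the receptor, had 9.64 and 9.54 at 96 h, against 10.54 and 10.57 at 48 h, a fall of 0.97 ± 0.075 (1.95-fold, adjusted p = 7.01e-05). With siRNA 2 it had 9.85 and 9.78, against 10.10 and 10.06 in the control. Stat3, the transcription factor itself, had 8.99 and 9.05 at 96 h, against 9.22 and 9.29 at 48 h, a difference of -0.23 ± 0.080 that missed the threshold (adjusted p = 0.052). Il6st, the gp130 chain of the LIF receptor, fell by 0.45 ± 0.076, Stat5b by 0.65 ± 0.076 and the inhibitor Socs5 by 0.53 ± 0.083. Of 17 components 2 were called higher, 6 lower and 9 neither (median -0.23). Of 19 further targets of LIF and Stat3 4 were called higher, 11 lower and 4 neither (median -0.40). The cyclin gene Ccnd3 fell by 1.59 ± 0.099, the homeobox gene Gbx2 by 1.42 ± 0.089, the corepressor gene Tle5 by 1.21 ± 0.100 and the kinase gene Pim3 by 1.16 ± 0.082. For Gbx2, Pim3 and Ccnd3 the difference of siRNA 2 from the control did not pass (-0.27 ± 0.089, -0.19 ± 0.082 and -0.28 ± 0.099). For Tle5 this difference passed (-0.62 ± 0.100, limma adjusted p = 0.00558).

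Many genes of the integrated stress response were lower at 96 h. In this response the kinases that sense amino acid shortage or unfolded proteins slow translation, and the factor Atf4 then induces genes of amino acid synthesis and transport. Of 25 measured genes of this and the unfolded protein response, 3 were called higher, 12 lower and 10 neither, with a median of -0.24. Those called higher were Sesn2 (1.36), Hsp90b1 (0.55) and Manf (0.55). Atf3 (-0.17), Ddit3 (-0.08) and Slc7a11 (-0.06) were among those not called. Chac1, an enzyme that degrades glutathione, had 6.18 and 6.22 at 96 h, against 8.91 and 8.58 at 48 h, a fall of 2.54 ± 0.15 (5.83-fold, adjusted p = 2.44e-05). Its control values of 7.02 and 7.46 at 96 h lay between them. Nupr1, a stress-induced chromatin protein, had 5.31 and 4.95 at 96 h, against 7.46 and 7.57 at 48 h, and 6.17 and 6.52 in the control. Trib3, a pseudokinase, had 7.46 and 7.51 at 96 h, against 8.99 and 8.92 at 48 h, and asparagine synthetase (Asns) had 10.48 and 10.52 at 96 h, against 11.78 and 11.79 at 48 h. Both 96 h arrays lay below both 48 h arrays in these genes, as the choice of Chac1, Nupr1 and Trib3 required. Trib3 (7.97 and 7.96 in the control) and Asns (10.68 and 10.75) were within 1.5-fold of the control at 96 h. Xbp1, a factor of the unfolded protein response that is also spliced upon stress, fell by 1.53 ± 0.071.

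The promoters of these 4 genes are shown because they hold a known binding sequence of Atf4 and its C/EBP partners. They are 4 of the 5 genes of the list that fell most, and the window of the other, Xbp1, held no match. Each is the RefSeq window of 300 bases, 250 before and 50 after the gene's start on GRCm38.p6, written 5′ to 3′ on the gene's strand, with matches to TGATGNAA or, on the other strand, TTNCATCA in capitals.
Chac1, chr2:119350992-119351291, plus strand: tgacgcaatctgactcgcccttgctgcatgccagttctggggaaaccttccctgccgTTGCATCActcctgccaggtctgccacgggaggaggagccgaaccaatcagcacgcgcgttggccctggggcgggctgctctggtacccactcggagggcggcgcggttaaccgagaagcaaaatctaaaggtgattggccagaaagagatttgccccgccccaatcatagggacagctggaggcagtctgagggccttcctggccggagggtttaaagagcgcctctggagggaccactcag
Nupr1, chr7:126625421-126625720, minus strand: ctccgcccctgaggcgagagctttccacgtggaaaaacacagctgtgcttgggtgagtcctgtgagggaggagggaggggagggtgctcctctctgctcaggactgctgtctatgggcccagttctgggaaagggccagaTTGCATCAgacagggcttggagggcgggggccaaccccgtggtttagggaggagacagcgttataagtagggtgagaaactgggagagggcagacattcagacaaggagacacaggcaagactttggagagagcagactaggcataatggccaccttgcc
Trib3, chr2:152344011-152344310, minus strand: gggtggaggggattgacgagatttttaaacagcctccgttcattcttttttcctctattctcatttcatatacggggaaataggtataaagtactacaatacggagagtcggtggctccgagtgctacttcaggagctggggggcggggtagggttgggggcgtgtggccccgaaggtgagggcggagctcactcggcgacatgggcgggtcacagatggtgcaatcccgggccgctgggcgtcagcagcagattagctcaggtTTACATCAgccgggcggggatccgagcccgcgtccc
Asns, chr6:7693160-7693459, minus strand: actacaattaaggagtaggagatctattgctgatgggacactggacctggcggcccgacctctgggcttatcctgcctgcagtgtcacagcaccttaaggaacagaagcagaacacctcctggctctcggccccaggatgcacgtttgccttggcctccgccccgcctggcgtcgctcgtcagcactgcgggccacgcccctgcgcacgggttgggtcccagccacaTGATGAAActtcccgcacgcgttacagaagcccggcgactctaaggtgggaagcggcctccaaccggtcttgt

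Each window shown held 1 match. It began at -193 from the start in Chac1, -110 in Nupr1 and -23 in Asns, and after the start, at 14, in Trib3. Of the 23 genes of the list with a window, 8 held the motif, 6 of the 11 that were called lower and 2 of the other 12. Of all 12273 measured genes with a window, 3.10% held it. A match is a description of these letters and says nothing of binding in these cells.

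Most measured genes of glycolysis and hypoxia were called lower. The list held 30 genes, of which Hk2, Gapdh, Pgk1, Pgam1, Eno1, Ldha and Bnip3 were matched to no named probe set. Of 23 genes, 0 were called higher, 19 lower and 4 neither by limma (1 was higher at an unadjusted p below 0.05), with a median of -0.55. Egln3, a prolyl hydroxylase that marks hypoxia-inducible factors for decay and is itself induced by them, had 6.65 and 6.67 at 96 h, against 9.31 and 9.16 at 48 h. The fall was 2.57 ± 0.099 on the log2 scale (5.95-fold, adjusted p = 6.27e-06), and siRNA 2 (6.54 and 6.79) and the control (6.61 and 6.55) at 96 h were at the level of siRNA 1 at 96 h. The related Egln1 fell by 0.97 ± 0.081 and averaged 7.51 in the control. Pfkp, a phosphofructokinase of glycolysis, had 8.11 and 8.18 at 96 h, against 10.33 and 10.12 at 48 h, with the control between them at 9.15 and 9.11. Slc2a3, which imports glucose, fell by 1.17 ± 0.072, and its control values were 12.06 and 12.07.

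Among the genes on no tissue list, the largest rises that also lay at least 1.5-fold above the control were those of several membrane and signalling proteins. Rasef, a Rab GTPase with calcium-binding EF hands, had 7.65 and 7.40 at 96 h, against 4.28 and 4.45 at 48 h. It was as bright with siRNA 2 (7.53 and 7.24) and dim at 48 h and in the control (4.43 and 4.98), and it rose by 3.16 ± 0.18 (8.96-fold, adjusted p = 2.13e-05). The calcitonin receptor gene Calcr had 7.90 and 7.59 at 96 h, against 4.64 and 4.71 at 48 h, and 5.75 and 5.27 in the control. Slc23a1, a transporter of vitamin C, had 8.92 and 8.62 at 96 h, against 5.94 and 5.66 at 48 h, and 7.51 and 7.60 in the control. The kinase gene Pim2 had 10.49 and 10.32 at 96 h, against 7.69 and 7.52 at 48 h, and 8.80 and 8.75 in the control. In the last 3 genes the control lay between the siRNA 1 groups and overlapped neither.

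Further rises of this kind were those of Fndc3c1 (2.75 ± 0.12), Tmem54 (2.71 ± 0.11), the iron exporter gene Slc40a1 (2.36 ± 0.099), the phospholipase gene Pla2g4a (2.35 ± 0.17), Vgll3 (7.45 and 7.27 at 96 h, against 4.96 and 5.16 at 48 h), a cofactor of TEAD factors, the trafficking gene Mal2 (at least 2.23, as it was at the floor with 3.38 and 3.38 at 48 h) and the guanylate-binding gene Gbp2b (2.19 ± 0.17). Gbp2b and its near copy Gbp2 (1.75 ± 0.15) may share probes, so that their values are uncertain as separate genes. The neurofilament gene Nefl had 11.72 and 11.57 at 96 h, against 9.57 and 9.29 at 48 h, and 10.44 and 10.51 in the control. Ccn2, a matrix protein induced by YAP and TGF-beta signalling, had 12.16 and 12.16 at 96 h, against 9.66 and 9.61 at 48 h, and 10.98 and 10.88 in the control. Thbs1, the matrix protein thrombospondin, rose by 2.42 ± 0.14. They belong to the actin, integrin and matrix list, in which 14 of 26 genes were called higher and 2 lower (median 0.43), with the annexin genes Anxa3 (1.75 ± 0.085) and Anxa1 (1.67 ± 0.085) next.

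A second set of rises ended within 1.5-fold of the control. Usp7, a deubiquitinase that stabilises Mdm2, had 9.83 and 9.89 at 96 h, against 6.73 and 7.08 at 48 h, a rise of 2.95 ± 0.12 (7.75-fold, adjusted p = 6.56e-06). The siRNA 2 arrays had 9.56 and 9.58, lower than the control with 10.31 and 10.09 (-0.63 ± 0.12, limma adjusted p = 0.0119). The 48 h arrays lay far below all of these. The same held for the chromatin remodeller gene Atrx (9.60 and 9.62 at 96 h, against 7.38 and 7.78 at 48 h; control 9.44 and 9.13) and the RNA-binding gene Hdlbp (10.65 and 10.69 at 96 h, against 8.44 and 8.52 at 48 h; control 10.61 and 10.56). Pof1b rose by 2.42 ± 0.085, the zinc finger gene Zfp568 by 2.36 ± 0.13, Jakmip2 by 1.98 ± 0.17 and Gadd45g, a stress-induced regulator of growth, by 2.01 ± 0.100. Gadd45g was also higher with siRNA 2 than in the control (0.56 ± 0.100, adjusted p = 0.00856). Aldh1a1, a retinaldehyde dehydrogenase, rose by 2.12 ± 0.25 and the caveolar gene Cavin2 by 1.90 ± 0.23, and both were as high in the control (6.09 and 5.77), as the lung genes were. Their source was not tested.

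Falls that took siRNA 1 below the control were led by H3c15, a replication-dependent histone H3 gene. It had 4.88 and 5.01 at 96 h, against 7.86 and 7.78 at 48 h, a fall of 2.88 ± 0.083 (adjusted p = 2.47e-06), and 6.87 and 6.94 in the control. Histone H3 genes are nearly identical in sequence, so the probes may measure several of them together. Igsf21, an immunoglobulin superfamily gene, had 4.45 and 4.75 at 96 h, against 7.47 and 7.36 at 48 h, and the epithelial membrane gene Emp1 had 7.56 and 7.78 at 96 h, against 10.21 and 10.35 at 48 h. Their controls were between the times, at 5.94 and 6.02 and 8.82 and 9.02. Slc11a1, a metal ion transporter, had 6.07 and 6.09 at 96 h, against 8.25 and 8.44 at 48 h. Its control (7.85 and 8.03) was near the 48 h level, as were those of Accsl (5.67 and 5.79 at 96 h, against 8.02 and 7.88 at 48 h; control 7.65 and 7.84) and the Ras-related gene Mras (7.46 and 7.60 at 96 h, against 9.68 and 9.38 at 48 h; control 9.29 and 9.42). The AMP deaminase gene Ampd3 fell by 2.53 ± 0.11, Mymx, which muscle cells use to fuse, by 2.50 ± 0.082, the activin subunit gene Inhbb by 2.17 ± 0.13, Lrrc34 by 2.02 ± 0.11 and the glutamine transporter gene Slc38a5 by 2.03 ± 0.22.

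Falls that ended near the control included germline genes. Stra8, which retinoic acid induces before meiosis, had 6.24 and 6.44 at 96 h, against 7.95 and 7.96 at 48 h, and 5.93 and 6.30 in the control. The germ cell factor Sohlh2 fell by 1.62 ± 0.13 and Sycp3, of the synaptonemal complex, by 1.30 ± 0.093. Of 21 germline genes 1 were called higher, 9 lower and 11 neither (median -0.29). In the comparison of siRNA 2 with the control the median of the list was 0.34. Mael, a gene of the piRNA pathway, had 8.01 and 8.19 at 96 h, against 8.84 and 8.92 at 48 h, and 7.81 and 8.03 with siRNA 2, against 6.77 and 6.74 in the control. Its levels were thus lowest in the control. Piwil2 had 6.74 and 6.83 at 96 h, against 7.37 and 7.22 at 48 h, and 6.24 and 6.12 in the control. Other falls to within 1.5-fold of the control were those of Zc3h6 (-2.32 ± 0.17), the linker histone gene H1f2 (-1.52 ± 0.076), the myosin gene Myo1g (-1.49 ± 0.15) and the chromodomain gene Cdyl2 (-1.49 ± 0.16).

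Genes that act on DNA methylation were called in both directions, 35.0% higher and 25.0% lower, against 19.2% and 18.5% of all genes. Tet2, the other well-expressed Tet gene of ES cells, had 9.21 and 9.20 at 96 h, against 10.55 and 10.55 at 48 h, a fall of 1.34 ± 0.090 (adjusted p = 3.76e-05). With siRNA 2 it had 9.46 and 9.41, against 10.13 and 9.89 in the control. Tet3 was dim, with 5.18 and 5.24 at 96 h, against 5.24 and 4.91 at 48 h, and did not pass (0.14 ± 0.11). Of 20 genes, 7 were called higher, 5 lower and 8 neither, with a median of 0.073 that became -0.058 on the proteasome scale. Of 23 imprinted genes, 8 were called higher, 4 lower and 11 neither (median 0.085, and -0.046 on that scale). Peg3, a paternally expressed zinc finger gene, had 8.60 and 8.47 at 96 h, against 6.69 and 6.84 at 48 h, and 9.13 and 9.03 in the control. The non-coding RNA gene Meg3 rose by 1.42 ± 0.11, Impact by 1.14 ± 0.084 and Nnat by 1.82 ± 0.12, and each lay within 1.5-fold of the control at 96 h.

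The lists of embryonic signalling pathways held calls in both directions, each at larger shares than all genes (19.2% higher and 18.5% lower). The shares called higher and lower were 35.3% and 23.5% for BMP, 40.0% and 33.3% for Nodal, and 33.3% and 23.8% for Wnt. In the BMP list the inhibitor of differentiation genes rose, Id2 with 11.35 and 11.39 at 96 h, against 9.62 and 9.58 at 48 h, Id3 by 1.36 ± 0.096 and Id1 by 0.60 ± 0.072. The ligand gene Bmp4 had 9.68 and 9.99 at 96 h, against 11.22 and 11.23 at 48 h, and fell by 1.39 ± 0.10. The list held 6 genes called higher and 4 lower of 17. In the Nodal list (6 higher and 5 lower of 15) the antagonist gene Lefty1 had 10.81 and 11.09 at 96 h, against 9.86 and 9.65 at 48 h, a rise of 1.19 ± 0.16. The control was higher still at 11.53 and 11.61, and siRNA 2 lay below it by -0.78 ± 0.16 (adjusted p = 0.017). Smad7, an inhibitor of the pathway, fell by 0.77 ± 0.075, the convertase gene Pcsk6 by 0.72 ± 0.074, and the receptor gene Acvr2a rose by 0.84 ± 0.12. In the Wnt list (7 higher and 5 lower of 21) the receptor gene Fzd5 fell by 1.09 ± 0.086 and the secreted antagonist gene Sfrp1 by 0.91 ± 0.075, while Ccnd1 rose by 0.53 ± 0.074 and the repressor gene Tcf7l1 by 0.76 ± 0.11.

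Cdx2, Gata6 and Pax6, factors of other lineages, did not pass the test, whereas Tead4, Mesp2 and Snai2 (below) did. Cdx2 of trophectoderm averaged 5.96 at 96 h, against 5.91 at 48 h, Gata6 of primitive endoderm 6.74 and 6.56 at 96 h, against 6.62 and 6.76 at 48 h, and Pax6 of neural tissue 4.82 and 4.85 at 96 h, against 4.69 and 4.68 at 48 h. None passed, with differences of 0.05 ± 0.10, -0.04 ± 0.11 and 0.15 ± 0.090. The counts on the lineage lists stand against 19.2% of all genes called higher and 18.5% called lower, and those of trophectoderm and mesoderm rises were near that share. Of 26 extraembryonic endoderm genes 12 were called higher, 1 lower and 13 neither, with the endocytic genes Cubn (1.73 ± 0.17) and Dab2 (1.26 ± 0.12), the proteoglycan gene Srgn (1.70 ± 0.17) and follistatin (Fst, 0.72 ± 0.068) highest in the order of the test. Of 20 trophectoderm genes 5 were called higher, 4 lower and 11 neither. The epithelial keratin genes Krt8 and Krt18 rose by 1.39 ± 0.13 and 1.22 ± 0.093 and the receptor gene Fgfr2 by 1.03 ± 0.086, whereas the factor Tead4 fell by 0.98 ± 0.084. Of 24 neural genes 7 were called higher, 4 lower and 13 neither. Nefm rose by 1.79 ± 0.11 beside Nefl, the progenitor filament gene Nes rose by 0.71 ± 0.077, and the stathmin gene Stmn3 fell by 1.36 ± 0.096. Of 21 mesoderm genes 4 were called higher, 1 lower and 16 neither, and Snai2, a factor of cell migration, rose by 0.39 ± 0.079. The mesoderm factor Mesp2 was the gene called lower and fell by 0.53 ± 0.11.

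In the stress and growth lists, counts stand against 19.2% of all genes called higher and 18.5% called lower. Of 19 p53 targets 10 were called higher and 2 lower (median 0.38). Cdkn1a, the p53 target that arrests the cell cycle, had 9.45 and 9.44 at 96 h, against 9.20 and 9.36 at 48 h, and did not pass (adjusted p = 0.155). The kinase gene Plk2 rose by 1.11 ± 0.070, Trp53inp1 by 0.82 ± 0.089 and Perp by 0.67 ± 0.073, whereas Sesn1 fell by 0.71 ± 0.074. Of 20 apoptosis genes 6 were called higher, 5 lower and 9 neither. Casp8, the initiator caspase of death receptors, had 7.68 and 7.68 at 96 h, against 7.09 and 6.98 at 48 h, and 5.67 and 5.79 in the control, the lowest of the groups. Of 18 interferon genes 6 were called higher, 1 lower and 11 neither, and the factor Irf1 rose by 0.93 ± 0.081 and the antiviral gene Bst2 by 0.76 ± 0.080. Of 30 cell cycle genes 5 were called higher (16.7%), 5 lower (16.7%) and 20 neither, which is near the shares of all genes. The mitotic kinase gene Plk1 fell by 0.71 ± 0.082 and E2f1 by 0.60 ± 0.087, and Cdc25a rose by 0.49 ± 0.075.

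Among housekeeping genes, most of the measured ribosomal protein genes were called higher. The counts of the lists below stand against 19.2% of all genes called higher and 18.5% called lower. Of 10 ribosomal protein genes 7 were called higher, 0 lower and 3 neither by limma, with 1 lower at an unadjusted p below 0.05 (median 0.40, and 0.27 on the proteasome scale), with Rps3 at 0.79 ± 0.074 and Rpl22 at 0.81 ± 0.080. Of 26 proteasome genes 7 were called higher, 1 lower and 18 neither (median 0.14). Of 24 respiratory chain genes 5 were called higher (20.8%), 3 lower (12.5%) and 16 neither. Of 9 histone genes 1 were called higher, 5 lower and 3 neither (median -0.55), with H2bc4 at -1.41 ± 0.11 and H2ax at -1.01 ± 0.086. Of 13 cholesterol synthesis genes 5 were called higher, 1 lower and 7 neither, and the demethylase gene Cyp51 rose by 0.71 ± 0.072. Of 21 oxidative stress genes 10 were called higher, 5 lower and 6 neither. The peroxiredoxin gene Prdx2 rose by 1.36 ± 0.085 and the metallothionein gene Mt1 by 0.79 ± 0.077, while the mitochondrial superoxide dismutase gene Sod2 fell by 0.76 ± 0.077 and catalase (Cat) by 0.83 ± 0.10. Of 24 lysosome and autophagy genes 6 were called higher, 7 lower and 11 neither. Tfeb, the factor that activates such genes, fell by 0.84 ± 0.095 and the kinase gene Ulk1 by 0.70 ± 0.069, while Atg5 rose by 0.91 ± 0.093. Of 12 listed genes of the 2-cell-like state only 2 were measured, and Zscan4c, Zscan4d, Zscan4f and Dux were matched to no named probe set. The measured genes, Zfp352 (-0.06 ± 0.095) and Arg2 (0.26 ± 0.15), passed neither limma nor an unadjusted p of 0.05. They are too few to describe this state.

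**Figure D5:**
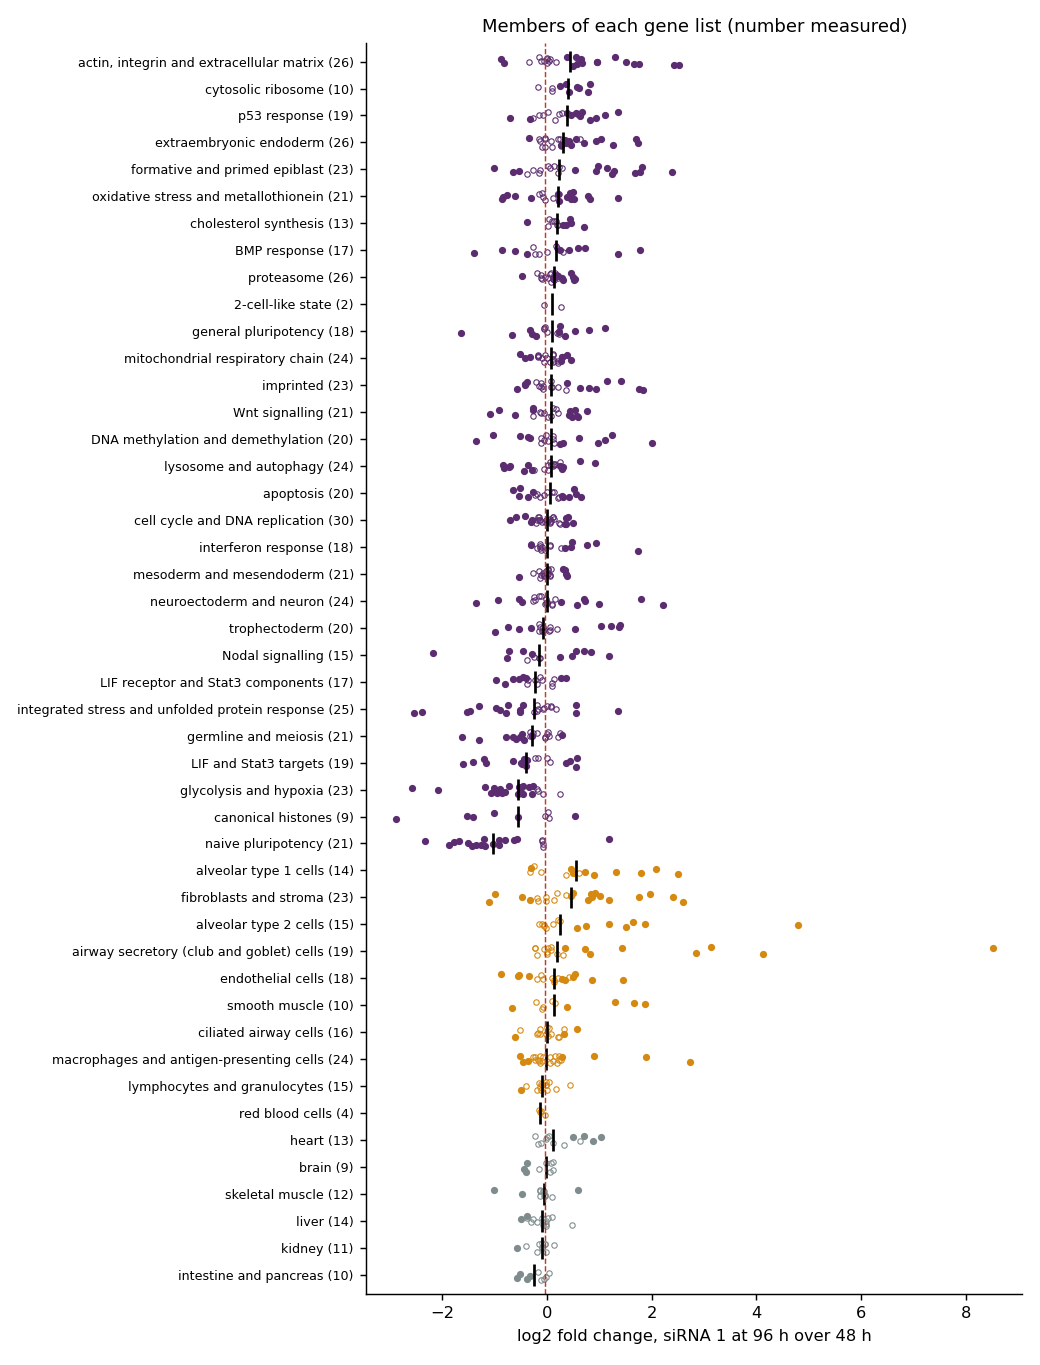
Log2 fold change of siRNA 1 at 96 h over 48 h (horizontal axis) for each measured gene of 46 lists (vertical axis, number measured in parentheses): ES cell lists at the top, lung cell types in the middle and other tissues at the bottom. Filled circles are called genes, open circles are not called, black bars are list medians and the dashed line is the median of all genes (-0.032); the naive list has the lowest median (-1.04).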

How the data were processed

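Per the labels, the extracted material was total RNA of E14Tg2a cells and the label was biotin. There were 8 Affymetrix arrays, 2 for each of 4 groups. The deposited values are RMA values on the log2 scale, per the submitters' processing notes, which give no version. RMA brings arrays to 1 distribution, which hides any difference in total RNA per cell. Whether all arrays were normalized in 1 run was not tested. Values ran from 2.60 to 15.3, with array medians of 6.68 to 6.72. Of 16556 probe sets, 64 were controls, 15270 carried 1 gene symbol in the platform annotation, 0 carried several and 1222 were not listed there and stayed unnamed. For 3 genes the brighter probe set was kept, which left 15267 genes. The number of arrays limits the precision, and no detection limit was set.

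Differences were tested with limma 3.58.1 in R 4.3.3 (group-means model on all 8 arrays, 4 residual and 4.13 prior degrees of freedom, two-sided, Benjamini-Hochberg adjustment over all genes, called below 0.05). The comparisons were siRNA 1 at 96 h minus 48 h, and siRNA 2 minus control at 96 h, which shares no array with it. Errors after ± are SE of the difference from the fit. The code was tested on simulated data. Replicate numbers did not pair arrays: deviations of same-numbered arrays correlated with r from -0.056 to 0.14 between groups.

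The genes, the 46 gene lists (815 of 968 listed genes measured) and the tests were chosen with earlier results of these data known. Genes named are the largest called rises and falls without overlap of arrays, the largest rises and falls on no tissue list above or below the control by 1.5-fold or within it, up to 4 members a list by adjusted p, the airway secretory and alveolar type 2 lists and a fixed panel. In all 18 alternative settings were tried: the arrays in the fit, eBayes options, quantile normalization again (with and without tissue genes), centring on proteasome genes, dim genes or tissue genes left out, the mean of probe sets, a replicate block, and each array left out. Summed signals of a list without its brightest gene were added after the data were seen.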

Additional observations from a re-analysis of the deposited data

Results flagged for a closer look

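The control probe sets were outside the comparison, and those of 18S ribosomal RNA and the poly-A spikes had signals at 48 h above the control arrays of 96 h. The hybridisation spikes lay below them instead, at 10.99 with siRNA 1 at 48 h, against 11.98 in the control. The 18S ribosomal RNA probe sets were higher with siRNA 1 at 48 h than in the control at 96 h by 1.42 on the log2 scale, and the poly-A spike probe sets by 1.07. With siRNA 1 at 96 h both lay within 0.15 of the control, at -0.147 for 18S and 0.149 for the spikes. The poly-A spikes are added to the RNA before labelling, and 18S ribosomal RNA is not polyadenylated. Their part in the differences between 96 h and 48 h was not tested.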

How the results depend on the processing

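Counts moved with the scale and the filter. Centred on proteasome genes, 1812 genes were called higher and 4384 lower, with 297 falls of at least 2-fold. With dim genes left out, 1833 were lower, 186 were at least 2-fold higher, and 4 of the 2-fold falls were called higher with siRNA 2. That last count was also 4 with an intensity trend and 1 with only the 4 arrays compared or with either repeat of quantile normalization. With only the 4 arrays of siRNA 2 and control, 1364 genes were called, and 6 of the 2-fold rises were called lower.

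Leaving out 1 array gave 3664 to 5676 called genes (1918 to 2886 higher, 1746 to 2805 lower). For siRNA 2 against the control it gave 1160 to 2043, with 6 to 9 of the 2-fold rises called lower, 115 to 148 called higher, and 0 to 3 of the 2-fold falls called higher. With the replicate block 5502 genes were called, 2794 higher and 2708 lower; 4 named genes lost their call (Actc1, Aldh1a7, Nppa and Sox2). Of 4034 alternative values of the 238 named genes, 3937 kept their side of the threshold, 81 lost the call and 16 gained it. Where a gene was called in the main fit or the alternative, 0 values reversed direction. A change of sign in a gene called in neither was counted as kept. Of 206 called genes, 25 lost the call at least once. The causes were not tested. With 2 arrays a group and no control at 48 h, time, siRNA and array preparation cannot be told apart.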
